A study of Mus musculus with 20 samples.

Results

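Damage to the kidney tubule was followed in whole mouse kidney through 10 marker genes: Havcr1, Lcn2, Spp1, Clu, Vcam1, Cd44, Tff3, B2m, Cst3 and Fabp1. They were listed by symbol as injury markers, with earlier results of these data known, and all were found among the 55822 genes of the deposited table. Dosing with puberulic acid, a tropolone that certain Penicillium moulds make, went with 612-fold more Havcr1 mRNA and 165-fold more Lcn2 mRNA than in control kidneys, as ratios of group means. Spp1, Clu, Vcam1 and Cd44 were also higher in every dosed library than in any control. Cst3 rose slightly in a call that depended on single libraries, B2m depended on 1 control library, and Tff3 and Fabp1 were close to undetected in both groups.

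The tubule reclaims salts, water and filtered proteins, and its proximal segment is the part most often hurt by toxins. Injured tubule cells lose their transport genes and switch on secreted or surface proteins such as KIM-1 (Havcr1) and lipocalin-2 (Lcn2), whose proteins are measured in urine as signs of injury. Beta-2 microglobulin (B2m), cystatin C (Cst3) and liver fatty acid binding protein (Fabp1) serve as urine or blood markers for other reasons, because they are filtered and taken up by the tubule or released from it, so their mRNA need not follow the protein.

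All mice were 8-week-old males of the inbred strain C57BL/6J. Control mice received phosphate-buffered saline, and treated mice received puberulic acid at 1 mg per day. The labels give 6 to 10 mice per group, and 5 kidney libraries of each group are analysed here. Both groups had 6 daily administrations from day 0 to day 5, and kidneys were taken on day 7 after a day without dosing. Whether a given mouse was dosed by mouth or by injection into the abdomen is not known, since the labels differ on the route. Choleste-Help, a supplement, was tested as well, in a normal lot and a toxic lot that are not analysed here.

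Libraries held 18409940 to 24705953 estimated counts. Levels are given in CPM, counts scaled to a common library size by the TMM method (trimmed mean of M-values). Mitochondrially encoded genes took 18.8 to 22.2% of counts in controls and 10.5 to 13.8% with puberulic acid. Of 16266 genes tested with edgeR's quasi-likelihood test, 10622 (65.3%) passed an adjusted p threshold of 0.05, 34.2% as higher and 31.1% as lower with puberulic acid. The labels do not tie a library to a mouse, so p-values measure the spread between these samples, which may be partly technical. Markers of the proximal tubule were abundant in control kidney, as the tissue label requires, with a summed level of 11690 to 18115 CPM over 12 genes.

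Of the 10 injury genes, 8 passed the filter on low counts, and 7 of these 8 were called higher, 0 lower and 1, B2m, was not called. The call for Cst3 was lost in 5 of the 10 fits that left out 1 library, and B2m was called higher without control 1. Of all tested genes, 34.2% were called higher and 31.1% lower, and these shares stand beside every count of calls in a gene list below. For 6 of the 8, every treated library lay above every control, and CPM ranges were apart in either direction for 50.1% of all genes tested. The same 6 were called at least 4-fold higher, where 9.22% of all genes were (18.7% were called at least 2-fold higher). The 10 genes together held 0.152% ± 0.0595 of all counts in control kidney, and 2.33% ± 0.439 after puberulic acid (SD, n = 5 each). In bulk tissue, fewer cells of a type and less RNA per cell cannot be told apart.

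**Figure D1:**
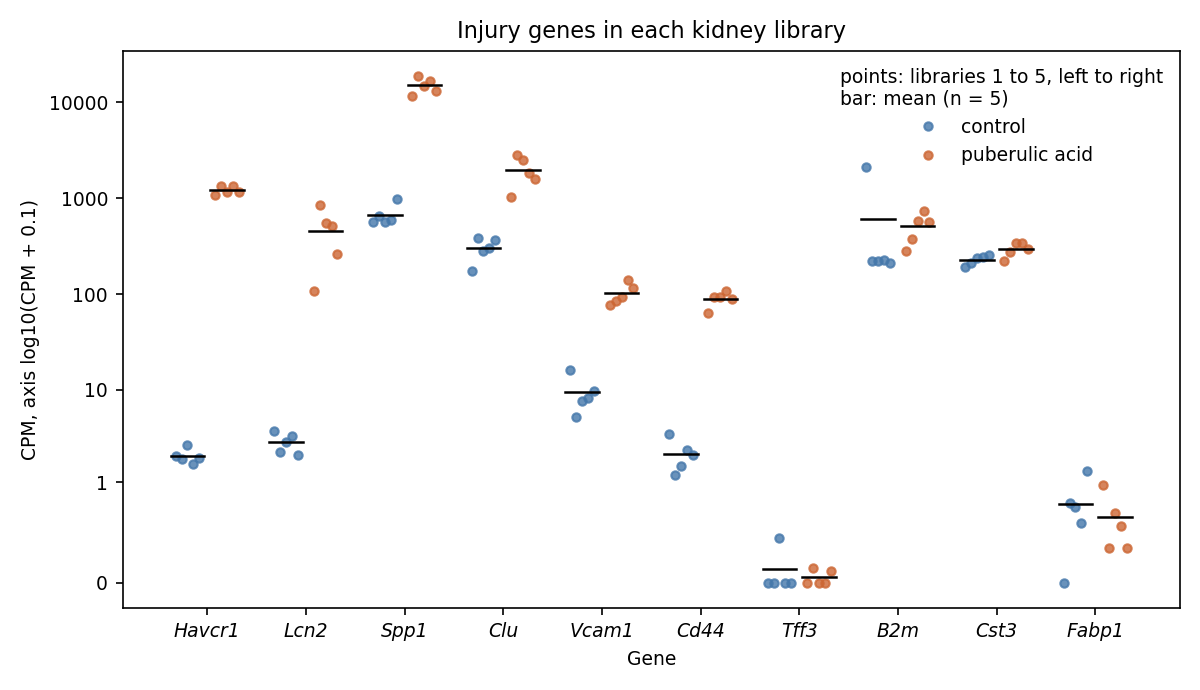
Level of each injury gene in each library, in CPM on an axis of log10(CPM + 0.1). Each point is 1 library (control left, puberulic acid right, libraries 1 to 5 from left to right) and each bar is the group mean (n = 5). Puberulic acid libraries lie above all controls for Havcr1, Lcn2, Spp1, Clu, Vcam1 and Cd44, while control 1 stands alone for B2m at 2126 CPM.

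Havcr1 (ENSMUSG00000040405) encodes KIM-1, a surface receptor that lets tubule cells engulf dying neighbours. Its level in controls 1 to 5 was 2.00, 1.85, 2.61, 1.62 and 1.88 CPM. With puberulic acid it was 1089, 1335, 1174, 1343 and 1152 CPM. The lowest treated library was 417-fold above the highest control, and the treated libraries lay within 1.23-fold of each other. The log2 fold change was 9.26 ± 0.16 (SE; 95% interval 8.90 to 9.61; edgeR adjusted p = 1.53e-11), the 40th highest of the genes tested. Ranked by count within each library, Havcr1 moved from places 12241 to 13153 in controls to places 34 to 45 in treated kidneys.

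Lcn2 (ENSMUSG00000026822) encodes lipocalin-2, a secreted protein that binds the iron carriers of bacteria. Control kidneys held 3.65, 2.16, 2.80, 3.24 and 2.01 CPM. Treated kidneys held 108, 840.5, 559, 509.8 and 265 CPM. The groups did not overlap, but Lcn2 had the widest spread of the 7 genes called among treated libraries, 7.77-fold from lowest to highest, with library 1 far below library 2. Its mean went from 2.77 ± 0.70 to 456 ± 282 CPM (SD, n = 5). On the log2 scale this was 7.36 ± 0.55 (SE; edgeR adjusted p = 4.37e-07). Without treated library 1 the log2 fold change was 7.59, with an edgeR adjusted p of 9.7e-09.

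Around these genes stand the receptors, shedding enzymes and relatives of KIM-1 and lipocalin-2 and genes induced together with lipocalin-2. Of 16 such genes 14 were tested, and 12 were called higher and 2 lower, with a median log2 fold change of 1.98 against 0.0458 over all genes tested. The 2 that fell are both receptors that take up lipocalin-2. Megalin (Lrp2) went from 1332 ± 144 to 145 ± 58.7 CPM (SD, n = 5), and Slc22a17 from 27.1 ± 2.04 to 8.47 ± 1.52 CPM (SD, n = 5). Socs3, a feedback inhibitor of cytokine signalling, rose from 1.89 ± 0.114 to 49.99 ± 14.0 CPM (SD, n = 5), which is 4.72 ± 0.22 (SE) on the log2 scale. Slpi, a secreted protease inhibitor, rose from 0.101 to 10.8 CPM (log2 fold change 6.72), with control 4 the highest control at 0.374 CPM. Without control 4 the controls held 0 to 0.130 CPM, fewer than 3 counts each, so no fold is given for that fit. The cytokine Il6 had 0 counts in all 5 controls and a mean of 2.56 ± 1.53 CPM (SD, n = 5) in treated kidneys, so no fold is given. Timd2, a relative of Havcr1 in the same gene family that was picked after its values were seen, rose from 68.7 ± 18.1 to 173 ± 10.7 CPM (SD, n = 5), a change of 1.33 on the log2 scale. In control kidney Timd2 therefore had the higher count level of the pair, and in treated kidney Havcr1 did, on the CPM scale, which is not corrected for length.

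Spp1 (ENSMUSG00000029304) encodes osteopontin, a secreted phosphoprotein of bone and urine that binds integrins and CD44. Controls 1 to 5 held 561, 653, 562, 599.7 and 993 CPM. Treated kidneys held 11694, 18691, 14750, 16698 and 13170 CPM. Control 5 was the highest control, and still 11.8-fold below the lowest treated library. The log2 fold change was 4.48 ± 0.21 (SE; edgeR adjusted p = 1.67e-08), and the ratio of means was 22.3. Spp1 was among the most abundant mRNAs of the treated kidney: it ranked 6th by count in library 1 and 2nd in libraries 2 to 5, and took 1.37 to 2.21% of all counts, compared with 0.0464 to 0.083% in controls.

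The promoter of Spp1 is shown because this gene held 73.5 to 80.3% of the summed CPM of the 10 injury genes in treated libraries. It is the 250 bases before the first RefSeq start in GRCm38.p6, chr5:104434861-104435110 on the plus strand. Capitals mark a match to the letters TATAAA (211 to 206 bases before the start) and a match to the interferon response motif on the opposite strand (157 to 148 bases before it).
Spp1: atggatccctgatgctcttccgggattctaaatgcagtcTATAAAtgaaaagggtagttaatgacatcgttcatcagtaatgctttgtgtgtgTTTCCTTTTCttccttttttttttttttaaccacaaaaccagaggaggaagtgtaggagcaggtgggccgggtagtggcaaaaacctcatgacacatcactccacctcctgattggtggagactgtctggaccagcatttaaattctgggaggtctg

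Integrins that bind osteopontin and enzymes that modify or cut it were higher in 11 of 14 tested genes and lower in 1, with a median log2 fold change of 1.40. The matrix metalloproteinases Mmp3 and Mmp7, which cleave osteopontin, rose from traces of 0.0896 and 0.0244 CPM to 5.08 and 1.65 CPM. Itgb3, the beta chain of an osteopontin receptor, rose from 1.01 ± 0.522 to 12.1 ± 2.37 CPM (SD, n = 5), which is 3.57 ± 0.33 (SE) on the log2 scale. Itgb5 (134 and 121 CPM) and Itga8 (10.9 and 9.06 CPM, means in control and treated kidney) did not pass the test. Fam20c, the kinase that phosphorylates osteopontin, fell by 0.72 on the log2 scale. That call for Fam20c was lost without control 3, 4 or 5 or treated library 1 or 4, with upper-quartile factors, with total counts alone and with the replicate number as a block, each of which left 0 genes of the list lower.

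Clu (ENSMUSG00000022037) encodes clusterin, a secreted chaperone that binds misfolded proteins and blocks the terminal complement complex. Its level in controls was 177, 382, 283, 307 and 365 CPM. In treated libraries it was 1029, 2852, 2481, 1816 and 1576 CPM. Every treated library was above every control, by 2.70-fold at the closest approach. The log2 fold change was 2.69 ± 0.29 (SE; edgeR adjusted p = 6.26e-06), with a ratio of means of 6.45. Clusterin receptors, heat shock genes and terminal complement genes were called higher for 5 of 12 and lower for 2, and 5 did not pass. Over all genes tested, 34.2% were called higher and 31.1% lower, so these counts alone do not set the list apart. The small heat shock protein Hspb1 rose from 12.4 ± 5.64 to 195 ± 26.8 CPM (SD, n = 5; log2 fold change 3.98), and the receptor Lrp8 from 0.989 to 9.43 CPM (log2 fold change 3.25). Trem2, a receptor of myeloid cells, rose from 0.259 to 1.97 CPM (log2 fold change 2.84), with control 2 the highest control at 0.738 CPM. Without control 2 the controls held 0.0623 to 0.191 CPM, at most 3 counts each, so no fold is given for that fit. C8g, part of a complement protein, fell by 1.79 and megalin by 3.20 on the log2 scale. Among the 5 not called were Hsf1, the heat shock factor, at 23.4 and 20.8 CPM, and Hspa1a at 36.3 and 39.0 CPM. The control mean of Hspa1a joins 16.7 to 19.5 CPM in controls 1 to 3 with 69.5 and 58.4 CPM in controls 4 and 5. Treated libraries lay between, at 20.9 to 51.4 CPM. Hspa1a and Hspa1b are nearly identical copies whose reads the counting may have split.

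Vcam1 (ENSMUSG00000027962) encodes an adhesion molecule that holds leukocytes bearing the integrin of Itga4, and it is also made by tubule cells that fail to recover from injury. Controls held 16.3, 5.22, 7.64, 8.23 and 9.74 CPM. Treated libraries held 77.4, 84.8, 94.4, 142 and 116 CPM. Control 1 was the highest control and remained 4.76-fold below the lowest treated library. The log2 fold change was 3.45 ± 0.28 (SE; edgeR adjusted p = 8.49e-07), and 3.73 without control 1. Of 11 tested genes for other adhesion molecules and leukocyte integrins, 8 rose and 1 fell (median log2 fold change 1.18). The leukocyte integrins Itgax (2.24 to 32.1 CPM; log2 fold change 3.83), Itgam (1.94 to 26.5 CPM; 3.78) and Itgb2 (4.85 to 25.4 CPM; 2.39) led this list. Control 4 was the highest control for Itgam, which changed by 4.50 without it. Jam3, a junction protein, fell by 0.64 on the log2 scale, a call that was lost without control 5 and with total counts alone.

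Cd44 (ENSMUSG00000005087) encodes the main receptor for hyaluronan, and also binds osteopontin. In controls it stood at 3.42, 1.21, 1.53, 2.31 and 2.01 CPM. In treated libraries it stood at 63.3, 92.9, 93.3, 107 and 90.0 CPM. The lowest treated library was 18.5-fold above the highest control. The log2 fold change was 5.41 ± 0.25 (SE; edgeR adjusted p = 1.58e-08), and the ratio of means was 42.6. Hyaluronan enzymes, CD44 linkers and splicing regulators were called higher for 7 and lower for 3 of 13 tested genes, beside 34.2% and 31.1% of all genes tested. Has2, a hyaluronan synthase, had 0 counts in every control and 1.24 ± 0.527 CPM (SD, n = 5) in treated kidneys. Hmmr, another hyaluronan receptor that is also made by dividing cells, rose from 0.767 to 12.9 CPM (log2 fold change 4.04), and Cemip, which degrades hyaluronan, from 0.218 to 1.56 CPM (2.76). Esrp2, a splicing regulator of epithelial cells that acts on Cd44, fell from 38.1 ± 7.41 to 16.4 ± 3.14 CPM (SD, n = 5; log2 fold change -1.22), whereas Esrp1 was at 14.7 and 16.8 CPM and did not pass. Hyal2 fell by 0.81, and Rdx, a linker of CD44 to the cytoskeleton, by 0.41 on the log2 scale. Scaled by total counts alone, neither was called, and the sign turned for Rdx, which was then 0.10 higher. Counts per gene do not tell the splice forms of Cd44 apart.

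B2m (ENSMUSG00000060802) encodes beta-2 microglobulin, the light chain that every classical class I molecule needs at the cell surface. Controls 1 to 5 held 2126, 223, 219.95, 227 and 212 CPM. Treated libraries held 283, 377, 573, 741 and 570.4 CPM. Control 1 was above all 9 other libraries, and the other 4 controls were below all treated libraries. With all 10 libraries the log2 fold change was -0.24 ± 0.66 (SE; 95% interval -1.681 to 1.198; edgeR adjusted p = 0.763). Without control 1 it was 1.19 ± 0.24 (SE), with an edgeR adjusted p of 0.00103, so the call depended on this 1 library. The value was also above 0, without a call, when libraries were scaled by total counts alone (0.28) and with the replicate number as a block (0.69). The mean of controls 2 to 5 was 220.5 ± 6.49 CPM (SD, n = 4). Control 1 was 9.64-fold above that mean, and the mean of treated libraries was 2.31-fold above it.

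Control 1 also stood apart for the class I pathway. It was the highest of all 10 libraries for 14 of 18 genes for class I heavy chains, class I-like molecules and peptide loading. Their summed level was 5468 CPM in control 1, 1125 to 1276 CPM in controls 2 to 5 and 1075 to 2388 CPM in treated libraries. Chosen after their values were seen, the immunoproteasome genes Psmb8 and Psmb9 were 28.3-fold and 23.5-fold above the mean of the other controls in control 1, the peptide transporter Tap1 19.9-fold, the class I activator Nlrc5 18.5-fold and the heavy chain H2-K1 7.8-fold. Fcgrt, Mr1, Cd1d1 and Hfe, whose products pair with B2m but have other roles, were not highest there. With all libraries 1 of the 18 genes was called higher (Cd1d1, log2 fold change 1.92), 2 lower and 15 were not called. Without control 1, 1 was called lower and 11 were called higher, among them Nlrc5 at 2.78, Tap1 at 2.21, Psmb8 at 2.08 and H2-K1 at 1.04 on the log2 scale. Fcgrt, the receptor that recycles albumin and antibodies, fell by 1.48 with all libraries and by 1.58 without control 1. The other call, H2-T22 (-0.82), was lost without control 1 or treated library 1, 2, 3 or 5, with upper-quartile factors, with total counts alone and with the replicate number as a block. Heavy chain genes are close copies of each other, so their single values are uncertain. The summed leukocyte markers in control 1 were 107 CPM, against 54.5 to 102 CPM in the other controls, and the lymphocyte markers were 8.56 CPM, against 4.29 to 6.80 CPM, so control 1 was the highest control for both. It was second to control 4 for macrophage markers (160.5 and 217 CPM) and neutrophil markers (2.11 and 2.24 CPM). Their part in the difference was not tested.

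**Figure D2:**
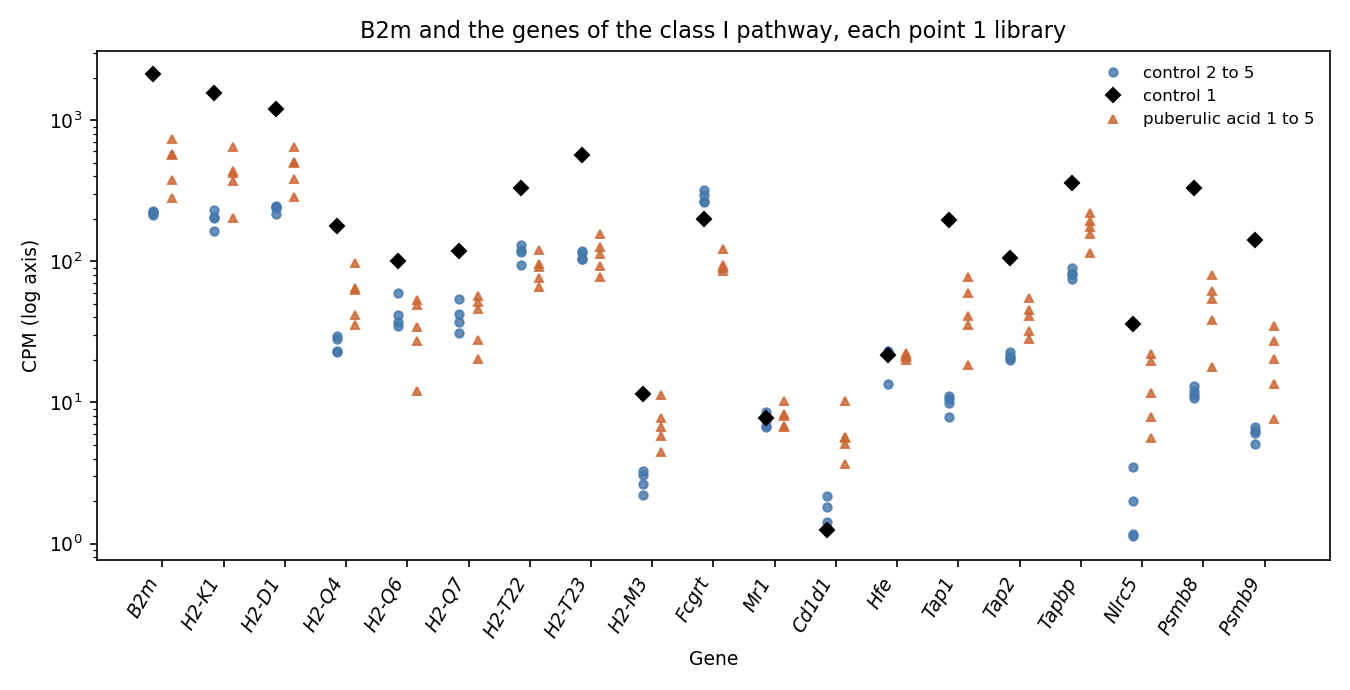
Level of B2m and 18 genes of the class I pathway in each library, in CPM on a log axis. Circles are controls 2 to 5, the diamond is control 1 and triangles are the 5 puberulic acid libraries. Control 1 is the highest library for B2m and for 14 of the 18 genes, with 333 CPM for Psmb8 against 10.8 to 13.1 CPM in the other controls.

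The 250 bases before the start of B2m are shown because they hold more of the motifs searched than those of any other injury gene with an entry in the RefSeq table (GRCm38.p6, chr2:122147437-122147686, plus strand). Capitals mark, from left to right, a match to TATAAA on the opposite strand (152 to 147 bases before the start), the interferon response motif (139 to 130) and an NF-kappaB match on the opposite strand (126 to 117).
B2m: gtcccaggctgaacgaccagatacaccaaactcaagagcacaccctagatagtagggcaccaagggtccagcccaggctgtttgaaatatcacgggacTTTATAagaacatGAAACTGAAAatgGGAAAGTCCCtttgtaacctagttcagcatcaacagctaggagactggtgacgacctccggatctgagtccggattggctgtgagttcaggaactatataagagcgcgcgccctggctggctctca

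Motifs were searched on both strands in 10 windows of 7 injury genes (RefSeq, GRCm38.p6). Beside each, the share of all 32851 windows of that length holding the motif is given. GAAANNGAAA (interferon response) was found in 2 of the 10 windows, that of B2m and the first of Spp1, and in 2.98% of all windows. This motif was added after the class I values of control 1 were seen, so nothing is concluded from its count. GGGNNNTTCC (NF-kappaB) was found in 1 of the 10 windows, that of B2m, and in 4.65% of all windows. TATAAA was found in 3 of the 10, the first window of Spp1 and those of B2m and Fabp1, and in 12.4% of all windows. GAANNTTC (heat shock pair) was found in 1 of the 10, the window at the second start of Havcr1, and in 6.69% of all windows. TGANTCA (AP-1) and TTCNNNGAA (STAT) were in none of these 10 windows, against 6.75% and 7.02% of all. Matches of different motifs did not overlap in the windows shown. In GENCODE M21, which has the same build, 4 of the 10 windows overlap exons of their own gene by more than 1 base (that of B2m by 1 base): the first of Havcr1 by 162 bases, Lcn2 by 197, Cst3 by 125 and Fabp1 by 52, so these windows are partly transcribed sequence. The match in Fabp1 lies in such an exon, and the one in Havcr1 does not.

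Cst3 (ENSMUSG00000027447) encodes cystatin C, a secreted inhibitor of cysteine proteases that the glomerulus filters and the proximal tubule breaks down. Controls held 192, 213, 237, 243 and 253 CPM. Treated libraries held 221, 273, 339.9, 341 and 293 CPM. The groups overlapped, since treated library 1 was below controls 3, 4 and 5. The log2 fold change was 0.37 ± 0.13 (SE; 95% interval 0.09 to 0.65; edgeR adjusted p = 0.024). This call was lost in 5 of 10 fits that left out 1 library: without control 1 (edgeR adjusted p = 0.059), control 2 (0.06) or treated library 3 (0.0761), 4 (0.0897) or 5 (0.058). Cathepsins and other inhibitors were called higher for 7 and lower for 3 of 12 genes, beside 34.2% and 31.1% of all genes tested. Cst6, a relative of Cst3, rose from 0.557 to 12.8 CPM (log2 fold change 4.50). Ctss, a protease of antigen-presenting cells, rose from 13.1 ± 8.89 to 130 ± 69.7 CPM (SD, n = 5; 3.31), and Ctsc from 22.4 to 111 CPM (2.31). Ctsf fell by 1.56, Lgmn by 0.65 and Ctsh by 0.32 on the log2 scale. Scaled by total counts alone, Lgmn and Ctsh were not called, and the sign turned for Ctsh, which was then 0.19 higher.

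Fabp1 (ENSMUSG00000054422) encodes the liver-type fatty acid binding protein, a urine marker in people, though the mouse proximal tubule makes little of it. It had 0, 11, 8, 5 and 21 counts in controls and 25, 3, 10, 7 and 4 counts in treated libraries. That is at most 1.36 CPM in controls and 0.928 CPM in treated libraries, with overlapping groups. It did not pass the filter on low counts, and without a filter its log2 fold change was -0.52, with an edgeR adjusted p of 0.574. Other genes of fatty acid binding and uptake were lower for 7 and higher for 1 of 10. The transporter and activating enzyme Slc27a2 went from 5233 ± 171 to 724 ± 89.1 CPM (SD, n = 5; log2 fold change -2.85), Cd36 from 447 to 115 CPM (-1.96) and Fabp7 from 11.9 to 2.46 CPM (-2.28). Control 1 held 34.0 CPM of Fabp7 and the other controls 5.91 to 7.08 CPM, and without control 1 its log2 fold change was -1.39, still called. Plin2, which coats lipid droplets, rose from 107 ± 10.6 to 389 ± 53.0 CPM (SD, n = 5; 1.86). Without treated library 2, 2 genes of the list were called higher.

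Tff3 (ENSMUSG00000024029) encodes a trefoil peptide that mucous and some tubule cells secrete. It had 0, 0, 3, 0 and 0 counts in controls and 0, 1, 0, 0 and 1 counts in treated libraries. All 10 values lay at or under 3 counts, the limit that a count of 0 allows, which is 0.0964 to 0.195 CPM in these libraries, so no fold is given. Among 8 trefoil and mucosal genes 5 were tested. Muc1, a mucin of distal tubule and collecting duct, rose from 15.6 ± 3.05 to 50.2 ± 11.9 CPM (SD, n = 5; log2 fold change 1.69), and the other 4 were not called. Without control 1 or without treated library 1, 2 genes were called higher, and without control 5 or treated library 1, 1 was called lower.

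Levels per kilobase used the joined length of all annotated exons of a gene, for example 860 bases for B2m and 8870 for Vcam1. This can exceed the transcripts expressed and so lower a gene's place. On this scale control kidney held most B2m as a mean of all 5 (699 ± 991 CPM per kb, SD, n = 5). Without control 1, Spp1 came first, at 426 ± 120 against 256 ± 7.55 for B2m (SD, n = 4). With all 5 controls Spp1 (409 ± 111) was second, followed by Cst3 (180 ± 19.5) and Clu (88.1 ± 23.6). Vcam1 (1.06 ± 0.469), Lcn2 (1.06 ± 0.266), Fabp1 (1.00 ± 0.915) and Havcr1 (0.862 ± 0.161) followed within each other's spread, and Cd44 (0.309 ± 0.126) and Tff3 (0.0775) came last. In treated kidney the level per kilobase was 9102 ± 1685 for Spp1. B2m (592 ± 210), Clu (568 ± 211) and Havcr1 (527 ± 49.5) came next and did not differ beyond their spread. Cst3 (232 ± 39.8) and Lcn2 (174 ± 108) overlapped too, then came Cd44 (13.2 ± 2.35) and Vcam1 (11.6 ± 2.94), also within their spread, and last Fabp1 (0.685) and Tff3 (0.0303). By its mean Havcr1 stood 8th of the 10 genes in controls and 4th in treated kidney. Neither exact place is resolved, since the genes named beside Havcr1 lay within its spread.

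**Figure D3:**
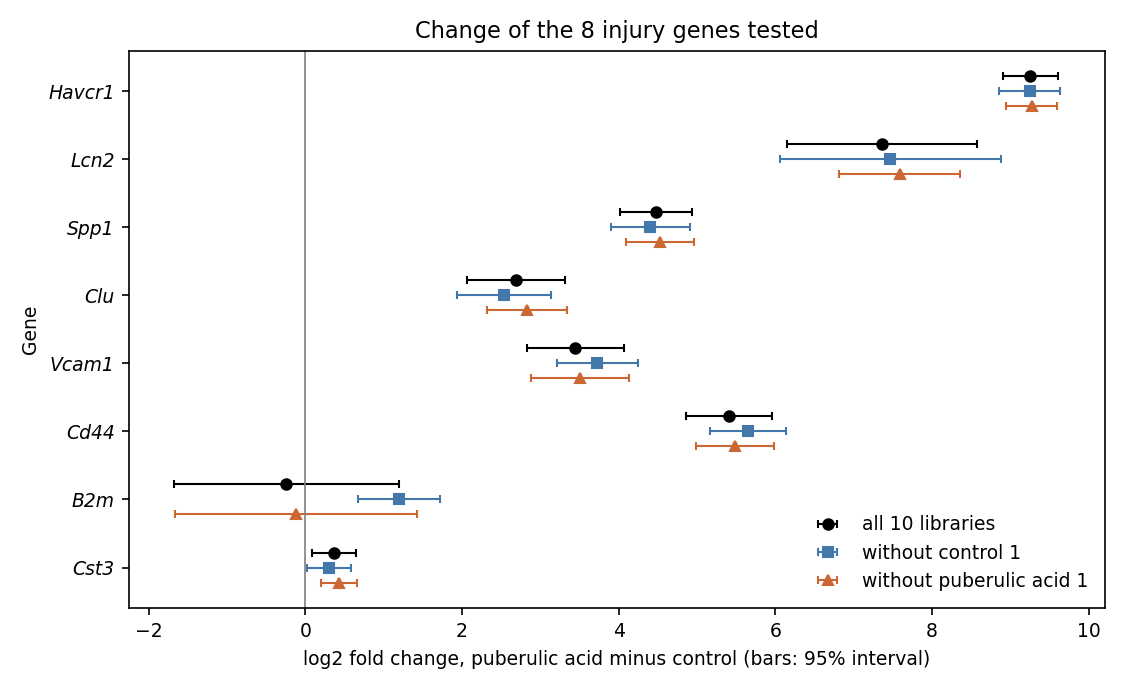
Log2 fold change of the 8 injury genes tested, puberulic acid minus control, with bars for the 95% interval. Circles use all 10 libraries, squares leave out control 1 and triangles leave out treated library 1. Havcr1 is at 9.26 and Lcn2 at 7.36, and B2m moves from -0.24 to 1.19 without control 1.

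Treated library 1 was the lowest of the 5 for all 7 genes called higher, and also for B2m. Relative to the median of treated libraries it held 0.212 of the Lcn2 level, 0.567 of Clu, 0.681 of Cd44, 0.793 of Spp1 and 0.927 of Havcr1. Library 4 was the highest for 4 of the 7 genes (Havcr1, Vcam1, Cd44 and Cst3) and library 2 for 3 (Lcn2, Spp1 and Clu). The order of the other libraries thus differed from gene to gene. Library 1 also had the highest summed proximal tubule markers of the treated group, 2196 CPM against 967.5 to 1149 CPM. Its summed markers of the later segments were the highest too, 6988 CPM (4719 of them Umod) against 3392 to 4374 CPM. It had the lowest summed markers of leukocytes (148 CPM, others 262 to 486), macrophages (231, others 471 to 779) and fibroblasts (588, others 798 to 2190). Their part in the level of the injury genes was not tested. All 7 calls held without library 1, where the log2 fold change was 9.27 for Havcr1, 4.53 for Spp1, 2.83 for Clu, 3.51 for Vcam1, 5.49 for Cd44 and 0.43 for Cst3.

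**Figure D4:**
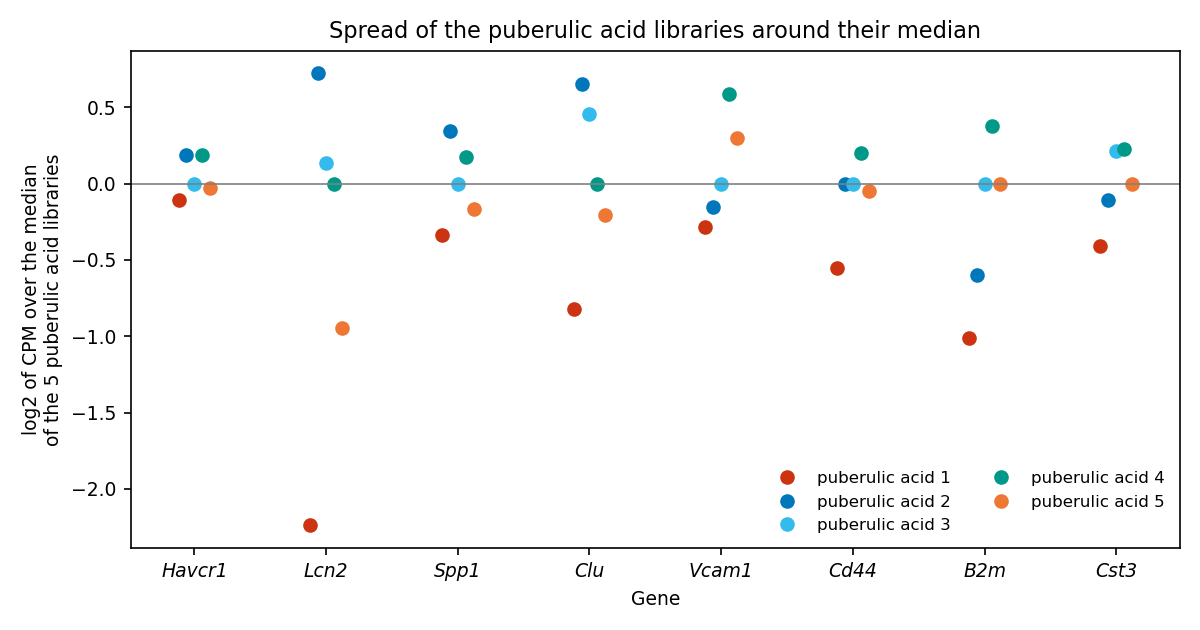
Spread of the treated libraries: log2 of each puberulic acid library's CPM over the median of the 5, for the 8 genes tested. Each colour is 1 library. Library 1 is the lowest point for all 8 genes, at 0.212 of the median for Lcn2 and 0.927 for Havcr1.

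Other genes in use as markers of injured or poorly repaired tubules numbered 29 in the test, of which 26 were called higher and 2 lower, with a median log2 fold change of 2.49. Krt20, a keratin, went from 0.1999 ± 0.0805 to 415 ± 92.6 CPM (SD, n = 5; log2 fold change 10.96 ± 0.28, SE). Timp1, an inhibitor of metalloproteinases, went from 0.419 to 120 ± 50.9 CPM (8.18), and Ccl2, which attracts monocytes, from 0.308 to 31.4 ± 14.5 CPM (6.63). Igfbp7, whose protein is a urine marker of tubular stress, fell from 1237 ± 132 to 881 ± 110 CPM (SD, n = 5; -0.49), and Mdk fell by 0.97. Il18 did not pass the test, at 2.80 and 2.22 CPM. The change of Igfbp7 was 0.0213, and 0 genes of the list were called lower, when libraries were scaled by total counts alone, which moves the median log2 fold change of all genes from 0.05 to 0.56 and gives 9179 genes called higher and 2526 lower, compared with 5564 and 5058.

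The proteins that reclaim filtered B2m, Cst3, Lcn2 and Fabp1 had their mRNA in a list of 9 uptake genes, of which 5 fell, 1 rose (Rab11a, 0.48) and 3 did not pass. Megalin fell by 3.20, cubilin (Cubn) by 2.99 and Lrpap1, the chaperone of megalin, by 2.26 on the log2 scale. All 12 markers of the proximal tubule fell, led by the organic anion transporter Slc22a8 (-6.76), the phosphate transporter Slc34a1 (-5.36) and Miox (-5.35), and their sum was 967.5 to 2196 CPM with puberulic acid. Later segments, from the loop of Henle to the collecting duct, were marked by 12 genes, of which 10 fell (6 with total counts alone), among them Pvalb (-4.18), Egf (-3.45) and Calb1 (-1.93), while Umod was not called at 3335 and 3476 CPM. The sums over these 12 genes overlapped, at 5528 to 7970 CPM in controls and 3392 to 6988 CPM with puberulic acid, where library 1 was the highest. A large part of each sum was Umod, at 2208 to 4050 CPM in controls and 2765 to 4719 CPM with puberulic acid. Without treated library 1 the log2 fold change was -5.68 for Pvalb, -4.15 for Egf, -2.60 for Calb1 and, among the proximal markers, -6.20 for Slc34a1.

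Several injury genes are also made by cells other than the tubule, and some markers of those cells moved. The counts below stand beside 34.2% of all genes tested called higher and 31.1% called lower. All 5 leukocyte markers rose, with a sum of 54.5 to 107 CPM in controls and 148 to 486 CPM with puberulic acid. Of 8 macrophage markers 6 rose, among them Cd68 (2.71 to 38.7 CPM), with sums of 94.8 to 217 and 231 to 779 CPM, while Adgre1 and Csf1r were not called. Fibroblast markers rose in 6 of 7 genes, with Col1a1 at a log2 fold change of 4.15, and their sum went from 128 to 192 CPM in controls to 588 to 2190 CPM. Neutrophil markers were low: 2 of 3 tested rose (Cxcr2 and Csf3r, at 1.16 to 2.39 and 1.45 to 2.89 CPM in treated kidneys), the sum was 0.896 to 2.24 and 3.42 to 6.31 CPM, and Ly6g had 0 counts in every library. Of 5 tested lymphocyte markers 1 rose (Trac), with sums of 4.29 to 8.56 and 4.86 to 10.8 CPM. That count was 2 without control 1 or 2 and 0 without control 4 or treated library 1 or 5 and with the replicate number as a block. No endothelial marker of 7 rose and 2 fell (Kdr and Egfl7; 0 with total counts alone), with sums of 244 to 356 and 139 to 299 CPM. Of 6 podocyte markers 1 fell (Nphs1), a call lost without control 3, 4 or 5 or treated library 3. The part of these cells in Lcn2, Spp1, Vcam1 and Cd44 was not tested.

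**Figure D5:**
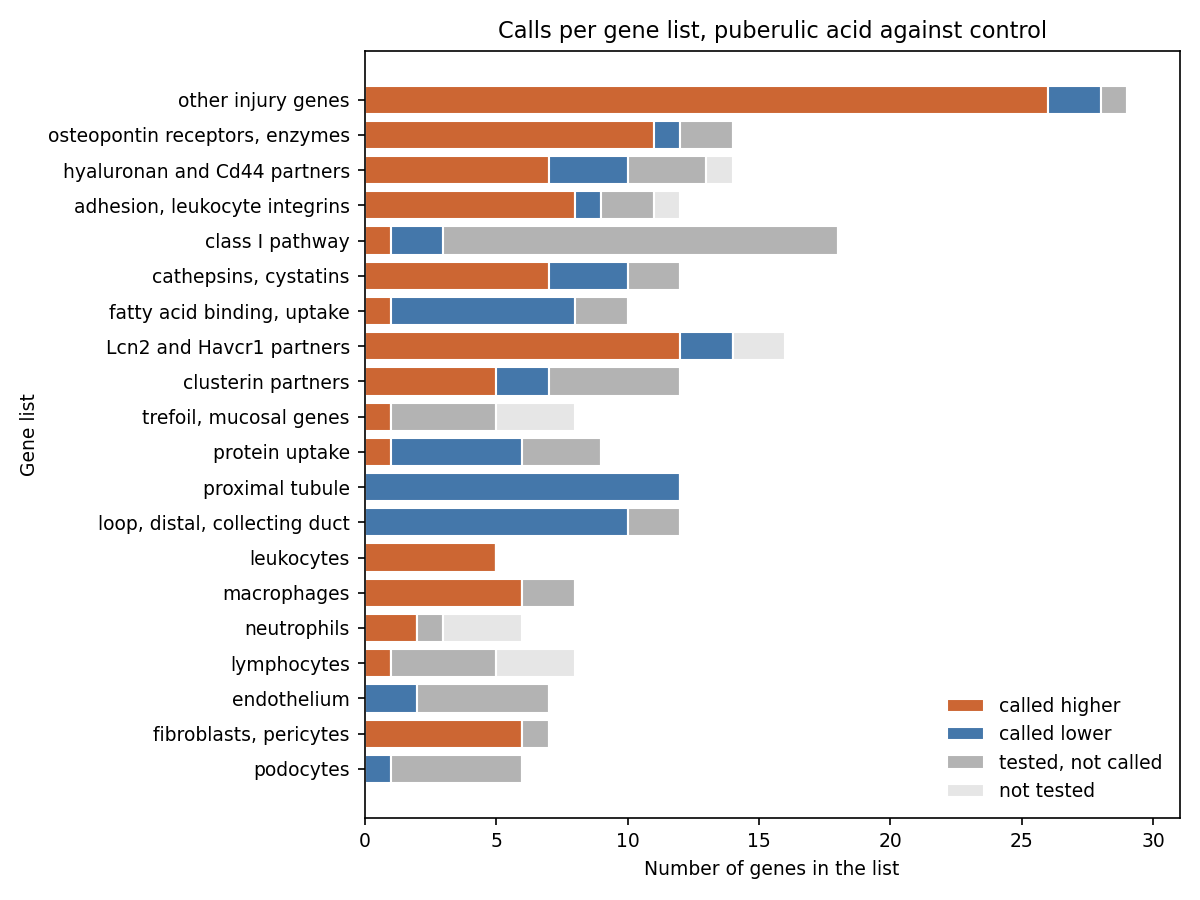
Number of genes called higher, called lower, tested but not called, and not tested in each list of related genes and cell type markers (horizontal axis: number of genes in the list). Of the other injury genes 26 of 29 are called higher, and all 12 proximal tubule markers are called lower. Over all genes tested, 34.2% are called higher and 31.1% lower.

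The genes most like each injury gene were found by the root mean square difference, over the 10 libraries, between profiles of log2(CPM + 0.5) centred on the control mean, among 10090 genes reaching a mean of 10 CPM in 1 group. Nearest to Havcr1 was Krt20 (0.33), followed by Il1rn (0.84) and Sprr1a (0.85). The genes nearest to Lcn2 were Crct1 at 0.64, Timp1 at 0.67 and Fosl1 at 0.75. Spp1 lay closest to Socs3 (0.27), Eda2r (0.30) and Gprc5a (0.31), and Clu to Ppp1r15a (0.27), Ier5 (0.29) and Arl4c (0.29). For Vcam1 the nearest were Foxm1 (0.25), Cd68 (0.32) and Glipr2 (0.34), and for Cd44 they were Runx1 (0.20), Serpina10 (0.29) and Sprr2h (0.30). B2m was matched by H2-K1 (0.20), H2-Q4 (0.22) and Il18bp (0.22), and Cst3 by Ube2s (0.09), Bin3 (0.09) and Rpl37a (0.10). These distances describe 10 libraries of 2 groups, and for genes near 0 in controls they depend on the pseudocount: with 0.1 in its place, 0 of the 3 nearest genes were shared for Lcn2, 1 for Havcr1 and Vcam1, 2 for Spp1 and Cd44, and 3 for Clu, B2m and Cst3.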

How the data were processed

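Poly(A) RNA of whole kidney was sequenced from strand-specific libraries, per the labels' protocols, which also state RNA integrity numbers above 7.5. Per gene, the authors deposited estimated counts, with no normalization stated. The submitters' processing notes name fastp 0.22.0, FastQC 0.12.1, MultiQC 1.28, Salmon 1.10.3, DESeq2 and the build GRCm39, with no role stated. The annotation is not given in the sources used here. Of the sample columns, 10 matched a control or puberulic acid sample by name. The names of the other 10 sample columns give the dose of the supplement but not which lot, so they were not used.

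After rounding the estimated counts, genes were filtered with filterByExpr, scaled with TMM and tested with edgeR 4.0.16 (glmQLFit, robust off, and glmQLFTest; limma 3.58.1, R 4.3.3) on the 5 control and 5 puberulic acid samples, without covariates. P-values were adjusted over the 16266 genes tested (Benjamini-Hochberg), with calls below 0.05. The standard error is the size of the log2 fold change over the square root of F. The totals of 18409940 to 24705953 counts put the limit of 3 counts at 0.0964 to 0.195 CPM. Such limits cover counting error only. No 2 libraries were identical.

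The injury genes and the gene lists were chosen with earlier results of these data known. Named genes are all injury genes, up to 3 per list and direction with the largest change among genes called with a mean of at least 1 CPM in 1 group, members that did not pass, the 3 nearest profiles, and those said to be picked after their values were seen. Symbols were found for 51344 of 55822 identifiers. Exon lengths, all annotated exons of a gene joined, came from GENCODE M21, an annotation of another build, and served for levels per kilobase only. Promoters came from a RefSeq table of GRCm38.p6, not the files' build, although a search was planned for promoters of the files' build alone. They were matched by symbol for 7 of the 10 injury genes. The interferon response motif was added after the class I values of control 1 were seen. Alternatives were other scaling (RLE, upper quartile, total counts), no mitochondrially encoded genes and 10 most abundant genes, other filters, DESeq2 1.42.0, a robust fit, a replicate block and each library left out in turn.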

Additional observations from a re-analysis of the deposited data

Results flagged for a closer look

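In 3 of the 20 sets of 5 libraries examined (10 genes in 2 groups), 1 library stood apart from the rest of its group. Its gap to the nearest neighbour was above 0.71 of the group's range. Chance gives about 1 in 20 for independent normal values, which CPM of genes from the same libraries need not be, so nothing is concluded from the number of flags. B2m in control 1 was at 2126.1 CPM, and the gap was 0.992 of the range of the controls. Spp1 in control 5 was at 992.58 CPM, the highest control, with a gap of 0.786 of the range. Tff3 in control 3 was at 0.19093 CPM, which is 3 counts where the other controls had 0, and lies at the detection limit. A lone count beside values of 0 always gives a gap of the whole range, so this flag carries no information. No treated library stood apart by this measure, Lcn2 in library 1 included.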

How the results depend on the processing

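The 7 calls among the injury genes held under each scaling, filter, tool and the robust fit, except that Spp1 was not tested where the 10 most abundant genes were left out. Scaled by total counts alone, 9179 genes were higher and 2526 lower. With a log2 fold change of at least 1 also required, 5264 were called, 3048 higher and 2216 lower. The replicate block gave 10325 calls, 10111 of them shared with the 10622, and B2m was at 0.69 (edgeR adjusted p = 0.386). The replicate block changed no call among the injury genes. Same-numbered samples did not deviate together (correlations of -0.172 to 0.039 between their deviations from the group means), and 0 of 5 controls and 1 of 5 treated samples correlated best with their own number, so the numbers were not taken as pairs.

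Leaving out 1 library gave 10104 to 11108 genes called, 5103 to 5842 higher and 4881 to 5395 lower. On the log2 scale it gave 9.18 to 9.36 for Havcr1, 7.00 to 7.59 for Lcn2, 4.37 to 4.65 for Spp1, 2.50 (without treated library 2) to 2.83 for Clu, 3.27 to 3.73 for Vcam1, 5.24 to 5.66 for Cd44, 0.27 to 0.43 for Cst3 and -0.47 to 1.19 for B2m. Cst3 lost its call in 5 of the 10 fits. Sign turns are given for list or named genes that were called in the fit with all libraries under TMM or in the one set against it; uncalled genes turned as well, among them B2m with total counts alone (0.28) and H2-T23 without control 1 (0.022). Without control 1 the sign turned for B2m and for H2-K1 (range over the 10 fits -0.45 to 1.04), Tap1 (-0.35 to 2.21), Psmb8 (-0.89 to 2.08), Psmb9 (-1.01 to 1.76), Pigr (-0.995 to 0.62) and Il18bp (-0.84 to 1.43). With total counts alone it turned for Igfbp7 (0.0213), Itgb5 (0.36), Rdx (0.10), Ctsh (0.19), Hsf1 (0.34), Cltc (0.42), Ocrl (0.37) and Egfl7 (0.048), a setting that moved the median of all genes to 0.56. The cause was not tested. Low counts limit what can be said of Tff3, Fabp1 and of S100a8, S100a9, Ly6g and Retnlg among the neutrophil markers. With total counts alone, genes called higher numbered 4 in the class I list, 8 in that of clusterin, 3 in those of Fabp1, Tff3 and the lymphocytes, and 4 in that of uptake.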

Other observations

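Outside the injury set too, single libraries lay apart from their group in some genes, of which 3 are given, picked after their values were seen. Pigr, the transporter of antibodies into secretions, was at 719 CPM in control 1 and at 64.0 to 105 CPM in the other controls, beside 91.8 to 172 CPM in treated libraries. Fabp4, a fatty acid binding protein of fat cells and capillaries, was at 234 CPM in treated library 3 and at 27.4 to 58.7 CPM in the other treated libraries. Vcan, a matrix proteoglycan that binds hyaluronan, was at 29.1 CPM in the same library, against 1.97 to 8.72 CPM in the rest of its group, and at 8.70 CPM in control 5, against 0.264 to 1.75 CPM in the other controls.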
